A study of Saccharomyces cerevisiae with 17 samples.

Results

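The genes of glycolysis and of the pentose phosphate pathway were followed in a lager brewing yeast through industrial propagation and fermentation. A list of 32 Saccharomyces cerevisiae genes was drawn up by name, 1 or more for each enzyme step, and the probe sets listed with those genes were read. Of the 32 genes 31 were measured, 20 of glycolysis and 11 of the pentose phosphate pathway, among 5449 genes on the arrays in all. The remaining gene, TDH2, is not analysed here, and each measured gene was read by a single probe set. By the usual assignment in S. cerevisiae, 10 measured genes code for a major isoenzyme, 12 for a minor one, and 9 for an enzyme or subunit without such a partner.

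Glycolysis splits glucose into pyruvate and yields ATP, and brewing yeast then turns the pyruvate into ethanol. The pentose phosphate pathway branches off at glucose-6-phosphate. Its oxidative arm gives NADPH, which feeds biosynthesis and the thioredoxin and glutathione systems that remove oxidants, and its non-oxidative arm gives ribose and leads sugar phosphates back into glycolysis. Many steps in yeast have a pair of isoenzymes, one made in abundance on glucose and another often made when glucose runs low or under stress.

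The strain was CB11, and all samples are of this one strain with no added genetic change. Lager yeasts are hybrids of S. cerevisiae and a relative, and transcripts of the parental genomes are not separated here. The propagation groups were taken at 0, 8 and 30 h from an oxygenated vessel of 140 hL held at 7 to 8 mg/L dissolved oxygen, with 3 arrays each. The fermentation groups were taken at 8, 30 and 60 h from a vessel of 3275 hL that received wort at 25 mg/L oxygen, with 3, 2 and 3 arrays. Both worts were of 17 Plato with 85% malt and 15% sugar, with zinc at 0.5 mg/L in propagation and 0.2 mg/L in fermentation. The fermentation yeast had already been through earlier fermentations, so stage, vessel, oxygen, zinc and yeast generation cannot be told apart. At each time all samples were drawn from a single vessel, and the p-values measure only the spread among them. In bulk RNA, fewer cells that express a gene and less RNA per cell cannot be told apart.

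All levels are log2 expression summaries deposited by the authors, and a change is the difference between group means of these log2 levels, with the standard error (SE) of the limma fit. A gene is said to rise, fall, or be higher or lower in a group where its limma p-value, adjusted over all 5449 genes, is under 0.05. Levels of different probe sets are not set against each other.

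Some arrays stood apart. The 6 arrays of propagation 8 h and 30 h correlated across genes at 0.369 to 0.563 with the other 11 arrays, which correlated at 0.730 to 0.998 with each other. On these 6 arrays the median level of 17 meiosis and sporulation markers was 7.25 to 8.19, against 4.51 to 5.96 on the others, and the mean of the hybridization controls was 12.02 to 12.67, against 4.82 to 10.58. Every comparison with propagation 8 h or 30 h carries these differences, and their part in the results was not tested. Signs of shortened RNA, the 3-prime minus 5-prime signal of control genes, were largest on array A of propagation 0 h (4.46), of fermentation 60 h (3.87) and of fermentation 8 h (3.55). Across genes, the difference of propagation 0 h A from B had a standard deviation of 1.17 and that from C 1.08, against 0.370 for B and C, so each result against propagation 0 h was also computed without it. For fermentation 8 h B and C it was 0.123, the smallest of any pair of arrays. Sample titles of fermentation 8 h and 30 h carry a mark that the others lack and that is not explained, so a batch behind it cannot be told apart from these groups.

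The first question was how the pathways differed between yeast at the start of propagation and yeast in fermentation. At 8 h of fermentation 21 of the 31 genes were higher than at propagation 0 h and 1 was lower, where 16.5% of all genes were higher and 11.5% lower. At 60 h of fermentation 22 were higher and 4 lower, with 25.3% of all genes higher and 15.7% lower. The median change of the 31 genes was 1.45 at 8 h and 1.44 at 60 h, beside 0.10 and 0.18 over all genes tested. Both comparisons share the propagation 0 h arrays. Without propagation 0 h A the counts were 19 higher and 2 lower at 8 h (17.8% and 17.2% of all genes). At 60 h they were 19 higher and 6 lower (27.3% and 21.5% of all genes). The median change in that fit was 1.22 at 8 h and 1.06 at 60 h, beside 0.08 and 0.13 over all genes tested. In glycolysis 16 of 20 genes were higher at 8 h and none was lower, and in the pentose phosphate pathway 5 of 11 were higher and 1, RKI1, was lower. Of the 12 minor isoenzyme genes 11 were higher at 8 h, and of the 10 major ones 5. The median change at 8 h was 1.69 for the minor and 1.46 for the major genes, and 1.62 and 0.92 without propagation 0 h A. At 60 h 10 minor and 7 major genes were higher, and 10 and 5 without propagation 0 h A. Whether the 2 classes differ was not tested on these counts.

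**Figure D1:**
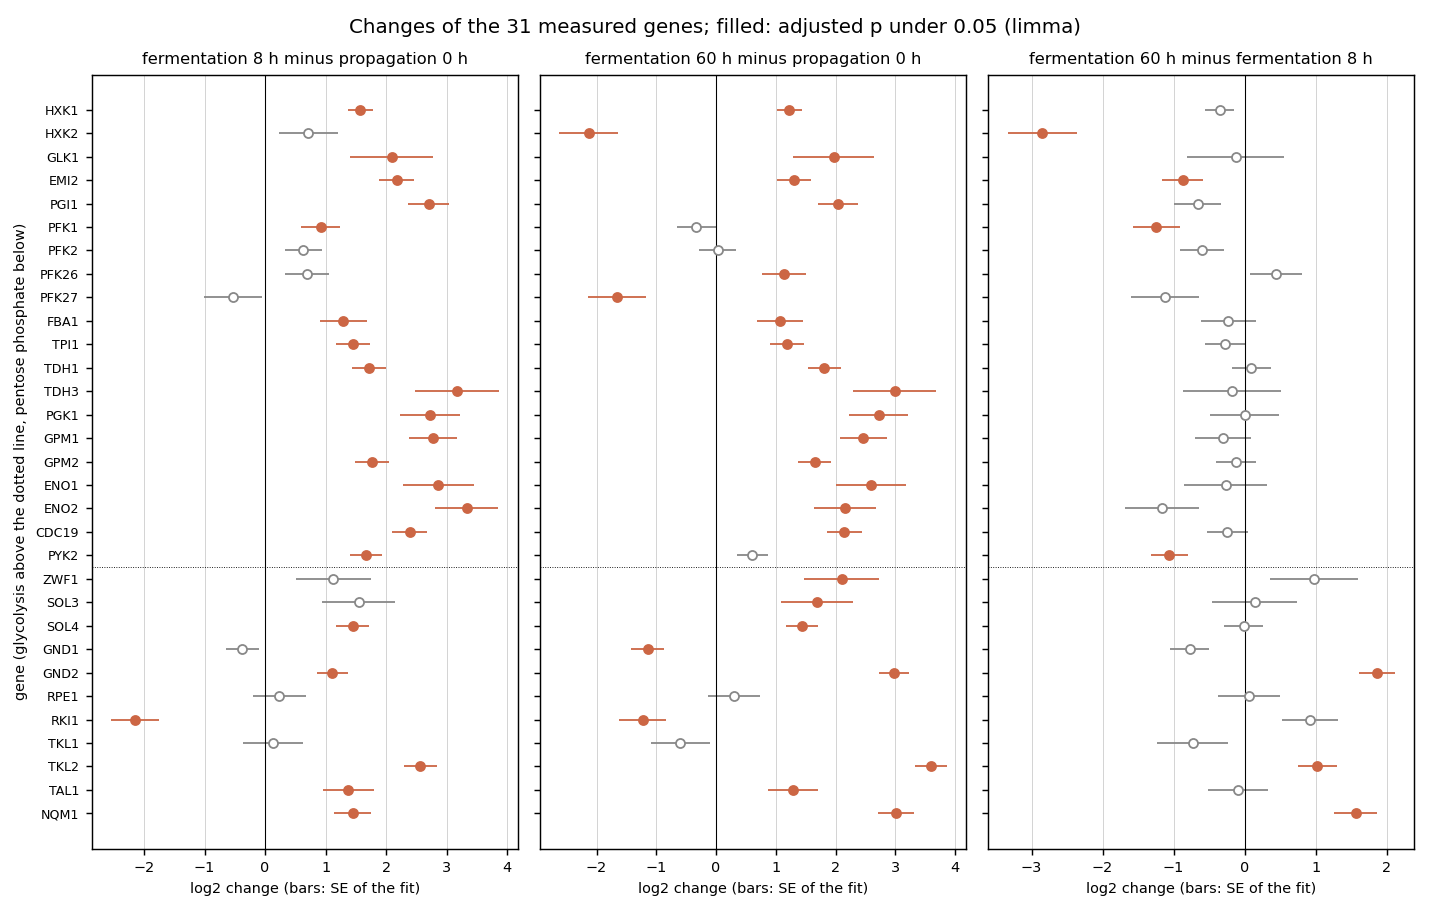
Log2 change (x axis) of each of the 31 measured genes (y axis) in 3 comparisons, with bars for the SE of the limma fit. Filled points passed at an adjusted p under 0.05. Most glycolytic genes lie to the right of 0 against propagation 0 h in both left panels, while the right panel shows HXK2 at -2.85 and GND2 at 1.87 between 8 h and 60 h of fermentation.

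Glucose enters both pathways through phosphorylation, and 4 genes for this step were measured. HXK2 codes for the main hexokinase on glucose, a protein that also takes part in glucose repression. Its level was 9.63, 11.53 and 11.86 on propagation 0 h A, B and C, 11.12 to 11.36 at propagation 8 h and 11.30 to 11.51 at propagation 30 h. In fermentation it was 11.37, 11.90 and 11.90 at 8 h, 9.40 and 11.13 at 30 h, and 8.22, 9.16 and 9.24 at 60 h. The 60 h arrays lay below all other arrays, and the 2 arrays at 30 h were far from each other. HXK2 fell by 2.85 between 8 h and 60 h of fermentation (SE 0.49, adjusted p = 0.000897, limma), a 7.20-fold lower level. It was also lower at 60 h than at propagation 0 h, by -2.13 (SE 0.49, adjusted p = 0.0024) and by -2.82 without propagation 0 h A.

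HXK1, which codes for the second hexokinase and is repressed by glucose in S. cerevisiae, was higher in fermentation than at propagation 0 h. Its level was 10.95 to 11.62 at propagation 0 h, 9.68 to 9.88 at 8 h and 9.55 to 9.91 at 30 h of propagation. In fermentation it was 12.73, 12.95 and 12.90 at 8 h, 12.64 and 12.76 at 30 h, and 12.44, 12.60 and 12.50 at 60 h. Every fermentation array lay above every propagation array, and every later propagation array lay below those of 0 h. HXK1 fell by 1.53 from 0 h to 8 h of propagation (SE 0.21, adjusted p = 6.01e-06) and was 1.58 higher at fermentation 8 h than at propagation 0 h (SE 0.21, adjusted p = 3.63e-05).

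The glucokinase gene GLK1 and EMI2, a gene for a further glucokinase, were also higher in fermentation. EMI2 lay between 8.38 and 9.28 at propagation 0 h and between 10.62 and 11.38 at fermentation 8 h, a change of 2.17 (SE 0.28, adjusted p = 3.4e-05). It fell again by 0.87 to 60 h (adjusted p = 0.0458), a call that held in only 5 of 17 fits that each left out 1 array. GLK1 lay at 7.11, 10.18 and 10.24 at propagation 0 h and at 10.16, 11.81 and 11.82 at fermentation 8 h, and the groups overlapped. In both groups array A was the low one, and at 60 h GLK1 was again lowest on array A (9.94, 11.68 and 11.81). These are the 3 arrays with the most shortened control RNA, and the part of RNA quality in GLK1 was not tested. Its change of 2.09 at fermentation 8 h (adjusted p = 0.03) was 1.06 without propagation 0 h A and no longer passed (adjusted p = 0.108). That call was also lost without fermentation 8 h B or C. At 60 h the change was 1.97 with all arrays (adjusted p = 0.0294) and 0.93 without propagation 0 h A (adjusted p = 0.129). Those fits keep the low A arrays of fermentation. With all 3 of these A arrays left out, GLK1 kept its call against propagation 0 h at both fermentation times.

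**Figure D2:**
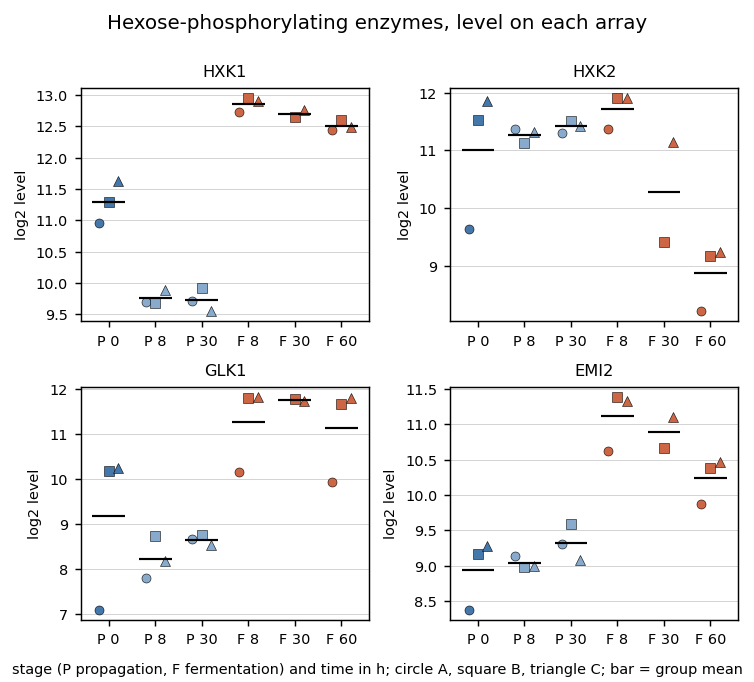
Log2 level (y axis) of the 4 genes for hexose phosphorylation on each of the 17 arrays, by stage and time (x axis), with a bar at the group mean. HXK2 is lowest at 60 h of fermentation (8.22 to 9.24), where HXK1 stays at 12.44 to 12.60. GLK1 is lowest within its group on array A of propagation 0 h, fermentation 8 h and fermentation 60 h.

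PGI1, the only gene for the isomerase that passes glucose-6-phosphate on to glycolysis, had the lowest levels late in propagation and the highest at 8 h and 30 h of fermentation. It lay at 8.72, 10.22 and 9.86 at propagation 0 h, at 9.58, 8.92 and 8.92 at 8 h, and at 7.39, 6.91 and 6.69 at 30 h. In fermentation it lay at 12.04, 12.42 and 12.43 at 8 h, at 12.42 and 12.47 at 30 h, and at 11.30, 11.68 and 11.92 at 60 h. The propagation 30 h arrays lay below, and the fermentation arrays above, all others. PGI1 fell by 2.15 from 8 h to 30 h of propagation (SE 0.33, adjusted p = 0.000902) and was 2.70 higher at fermentation 8 h than at propagation 0 h (SE 0.33, adjusted p = 2.02e-05). The difference between fermentation and propagation at 30 h, 5.45 (SE 0.37, adjusted p = 4.99e-09), was the largest of any of the 31 genes in the 9 comparisons.

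Phosphofructokinase, the regulated step of upper glycolysis, is built from the subunits coded by PFK1 and PFK2. PFK1 lay between 10.40 and 10.75 at fermentation 8 h, at 9.64 and 10.28 at 30 h and between 9.19 and 9.48 at 60 h. It fell by 1.24 from 8 h to 60 h (SE 0.33, adjusted p = 0.0172), a call lost when fermentation 8 h B or C, or 60 h C, was left out, and at an adjusted p of 0.0693 with 8 h B and C averaged. Its change against propagation 0 h of 0.92 at fermentation 8 h passed narrowly (adjusted p = 0.0477) and kept its call in only 1 of 17 fits that each left out 1 array. PFK2 changed by -0.60 between 8 h and 60 h and by 0.63 between propagation 0 h and fermentation 8 h, neither past the threshold.

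PFK26 and PFK27 code for the kinases that make fructose-2,6-bisphosphate, an activator of phosphofructokinase. PFK27 lay at 6.26, 8.48 and 9.03 at propagation 0 h, between 7.91 and 8.31 at 8 h and between 8.85 and 9.15 at 30 h. On the fermentation arrays PFK27 lay between 7.10 and 7.61 at 8 h, at 6.17 and 7.11 at 30 h, and between 6.19 and 6.35 at 60 h. Fermentation 60 h and propagation 0 h overlapped through propagation 0 h A alone. PFK27 was lower by -1.66 at 60 h than at propagation 0 h (SE 0.48, adjusted p = 0.0111), by -2.49 without propagation 0 h A, and by -1.10 without propagation 0 h C, where the call was lost (adjusted p = 0.0673). PFK26 was 1.13 higher in the same comparison (SE 0.37, adjusted p = 0.0208), and its call was lost after recentring the arrays (0.96), under quantile normalization (0.83), and without any 1 of 4 arrays, propagation 0 h B or C and fermentation 60 h A or B.

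For the steps from aldolase to pyruvate kinase, the 7 major or sole genes were FBA1, TPI1, TDH3, PGK1, GPM1, ENO2 and CDC19. All 7 were higher at fermentation 8 h and at 60 h than at propagation 0 h, with a median change of 2.72 and 2.16. From 0 h to 8 h of propagation 3 of them, TDH3, GPM1 and ENO2, rose and the others did not pass. None of these 3 passed there without propagation 0 h A. This group of 7 was formed after the data were seen. Without propagation 0 h A the median was 2.01 at 8 h, where all 7 passed, and 1.70 at 60 h, where 6 passed and FBA1 did not (0.41, adjusted p = 0.131). FBA1 at 60 h also lost its call after recentring (0.90).

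TDH3 codes for the main glyceraldehyde-3-phosphate dehydrogenase. It lay at 8.05, 11.97 and 11.86 at propagation 0 h, at 11.79, 12.40 and 12.91 at 8 h, and at 11.03, 10.30 and 10.88 at 30 h. Fermentation levels of TDH3 were 13.55, 13.94 and 13.89 at 8 h, 13.79 and 13.94 at 30 h, and 13.11, 13.89 and 13.84 at 60 h. Every fermentation array lay above every propagation array, and propagation 0 h A was far below the rest. The change from propagation 0 h to fermentation 8 h was 3.17 (SE 0.69, adjusted p = 0.00273), and 1.88 without propagation 0 h A (adjusted p = 0.000143). TDH1, a gene for a less abundant form of the same enzyme, was higher by 1.71 (SE 0.27, adjusted p = 0.000212). TDH genes are near copies of each other, and reading of one by the probe set of another was not tested.

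The other genes of these steps were higher in fermentation as well. ENO2, a gene for enolase that glucose induces, was 3.33 higher at fermentation 8 h than at propagation 0 h (SE 0.52, adjusted p = 0.000185), and 2.43 without propagation 0 h A. GPM1, for the main phosphoglycerate mutase, was 2.77 higher (SE 0.40, adjusted p = 7.99e-05), and PGK1, for phosphoglycerate kinase, 2.72 higher (SE 0.49, adjusted p = 0.000604). CDC19, for the main pyruvate kinase, lay between 10.19 and 11.36 at propagation 0 h and between 13.11 and 13.54 at fermentation 8 h, a change of 2.39 (SE 0.29, adjusted p = 1.63e-05). The aldolase gene FBA1 and the triosephosphate isomerase gene TPI1 changed less, by 1.30 and 1.45. For FBA1 this was 0.64 without propagation 0 h A (adjusted p = 0.0323), and with fermentation 8 h B and C averaged its call was lost (adjusted p = 0.0531). Among the minor genes, ENO1 was 2.86 higher and GPM2, a relative of GPM1 without known mutase activity, 1.77 higher.

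Within propagation 3 of these 7 genes fell late in the fit of all arrays. From 8 h to 30 h of propagation 4 of the 31 genes fell (1.93% of all genes fell) and 1 rose (3.08% of all genes rose). The 4 were FBA1, TPI1 and GPM1 of the 7, and PGI1, and SOL4 rose by 0.98. FBA1 lay between 11.98 and 12.39 at 8 h and between 9.93 and 10.59 at 30 h. It fell by 1.97 (SE 0.38, adjusted p = 0.00611), and TPI1 by 1.40 (SE 0.29, adjusted p = 0.0086), with no overlap of the 2 times for either gene. The fall of GPM1, -1.42 (adjusted p = 0.0471), and the rise of SOL4 (adjusted p = 0.0498) kept their call in only 3 of 17 fits that left out 1 array, and both lost it with fermentation 8 h B and C averaged, SOL4 also after recentring. ENO2 at -1.64 (adjusted p = 0.0827) and TDH3 at -1.63 (adjusted p = 0.2) did not pass, although their 2 times did not overlap. Both passed in limma with only the 2 groups in the fit (adjusted p = 0.00302 and 0.0119) and with array weights (0.00101 and 0.00125). They also passed without the 3 arrays of most shortened control RNA (adjusted p = 9.51e-05 and 0.000533). Under quantile normalization ENO2 passed (adjusted p = 0.0241) and TDH3 did not, and after recentring neither passed.

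**Figure D3:**
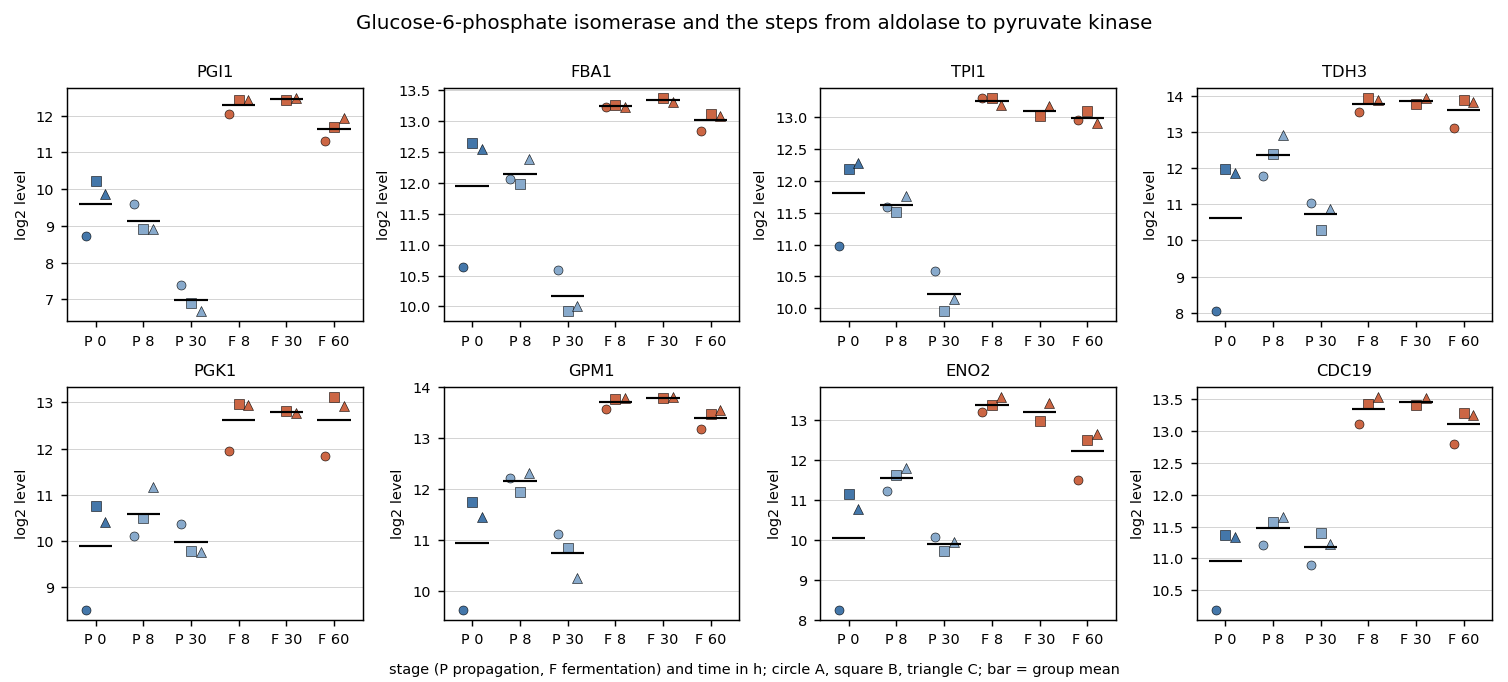
Log2 level (y axis) of PGI1 and of the major or sole genes from aldolase to pyruvate kinase on each array, by stage and time (x axis), with a bar at the group mean. The fermentation arrays lie above the propagation arrays in every panel but that of ENO2, where fermentation 60 h A (11.49) lies below propagation 8 h B and C (11.62 and 11.80). Propagation 0 h A lies below B and C of its group throughout, by most for TDH3 (8.05 against 11.97 and 11.86).

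The minor pyruvate kinase gene PYK2, repressed by glucose in S. cerevisiae, had its highest levels in propagation. It lay at 8.55, 8.09 and 8.47 at propagation 0 h, at 11.51, 11.05 and 10.41 at 8 h, and at 11.90, 11.73 and 11.39 at 30 h. On the fermentation arrays PYK2 lay at 10.17, 9.97 and 9.97 at 8 h, at 9.50 and 9.85 at 30 h, and at 8.79, 9.02 and 9.12 at 60 h. No group overlapped with propagation 0 h, and the fermentation times did not overlap with each other. PYK2 rose by 2.62 from 0 h to 8 h of propagation (SE 0.26, adjusted p = 2.18e-07) and was 3.30 higher at 30 h than at 0 h (SE 0.26, adjusted p = 1.39e-08). From 8 h to 60 h of fermentation it fell by 1.06 (SE 0.26, adjusted p = 0.0113). Over the same propagation times CDC19 changed by 0.51 and 0.21, which did not pass, but it passed at 1.27 and 1.12 under quantile normalization.

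The oxidative arm of the pentose phosphate pathway starts with ZWF1, the gene for glucose-6-phosphate dehydrogenase, which is the entry step and a source of NADPH. ZWF1 lay at 6.88, 8.96 and 8.84 at propagation 0 h, at 8.09, 9.91 and 10.05 at fermentation 8 h, at 10.20 and 10.03 at 30 h, and at 8.82, 10.90 and 11.26 at 60 h. As for GLK1, array A was the low one in each group that has an array A here. Its change at fermentation 8 h, 1.13, did not pass with all arrays (adjusted p = 0.197). It passed without the 3 arrays of most shortened control RNA (1.09, adjusted p = 0.00429) and with array weights (1.09, adjusted p = 0.00354). At 60 h ZWF1 was 2.10 higher than at propagation 0 h (SE 0.62, adjusted p = 0.0128), and 1.43 without propagation 0 h A (adjusted p = 0.0486). The call was lost without fermentation 60 h B or C.

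SOL3 and SOL4 code for 6-phosphogluconolactonases of the next step. SOL4 lay between 7.67 and 8.58 at propagation 0 h, between 5.63 and 7.34 at the later propagation times and between 9.34 and 9.96 in fermentation. It fell by 2.32 from 0 h to 8 h of propagation (SE 0.27, adjusted p = 1.43e-06) and was 1.45 higher at fermentation 8 h than at propagation 0 h (SE 0.27, adjusted p = 0.000897). SOL3 lay at 5.68, 8.998 and 8.99 at propagation 0 h and between 9.44 and 9.68 at fermentation 60 h. Its change of 1.69 (adjusted p = 0.0323) was 0.59 without propagation 0 h A and did not pass (adjusted p = 0.0842), and its call was lost without any 1 of the fermentation 60 h arrays. Each of these genes was under the 95th percentile of probe sets for another species, a measure of background, on 1 of the 17 arrays, while the other 29 genes were above it on all.

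GND1 and GND2 code for the major and the minor 6-phosphogluconate dehydrogenase, the second source of NADPH in the pathway. GND1 lay at 11.9997, 12.27 and 12.26 at propagation 0 h, at 9.16, 10.06 and 9.99 at 8 h, and at 9.74, 9.80 and 10.53 at 30 h. In fermentation GND1 was at 11.82, 11.80 and 11.78 at 8 h, at 11.31 and 11.93 at 30 h, and at 11.23, 10.95 and 10.92 at 60 h. No other group reached the propagation 0 h arrays. GND1 fell by 2.44 from 0 h to 8 h of propagation (SE 0.27, adjusted p = 8.03e-07) and was lower at fermentation 60 h than at propagation 0 h by -1.14 (SE 0.27, adjusted p = 0.00332). Between 8 h and 60 h of fermentation GND1 changed by -0.77, which did not pass with all arrays (adjusted p = 0.0668). The change passed after recentring (-0.87, adjusted p = 0.0293), with array weights (-0.84, adjusted p = 2.56e-06) and with the replicate block (adjusted p = 0.0494). It also passed with only the 2 groups in the fit (adjusted p = 0.00801) and without propagation 8 h and 30 h in the fit (adjusted p = 0.0324).

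GND2 lay between 7.37 and 7.79 at propagation 0 h and between 6.57 and 7.47 at the later propagation times. On the fermentation arrays GND2 lay at 8.99, 8.44 and 8.61 at 8 h, at 10.32 and 9.28 at 30 h, and at 10.53, 10.54 and 10.57 at 60 h. Fermentation 60 h was the highest group and overlapped with no other. GND2 rose by 1.87 from 8 h to 60 h of fermentation (SE 0.25, adjusted p = 0.000115), and at 60 h it was 2.98 higher than at propagation 0 h (SE 0.25, adjusted p = 4.68e-07), a 7.88-fold difference. Without propagation 0 h A that change was 3.09.

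In the non-oxidative arm, RKI1 codes for ribose-5-phosphate isomerase, which makes ribose-5-phosphate for nucleotides. It lay at 9.04, 10.88 and 11.22 at propagation 0 h, between 8.78 and 9.56 at 8 h and between 8.77 and 8.90 at 30 h. Fermentation levels of RKI1 lay between 8.08 and 8.42 at 8 h, at 8.05 and 8.25 at 30 h, and between 9.09 and 9.24 at 60 h. The highest arrays were propagation 0 h B and C. RKI1 was lower at fermentation 8 h than at propagation 0 h, by -2.15 (SE 0.39, adjusted p = 0.000676), and by -2.82 without propagation 0 h A. With all arrays none of the other 30 genes was lower there, but without propagation 0 h A PFK27 was too (-1.37, adjusted p = 0.00065, against -0.54, adjusted p = 0.452, with all arrays). RPE1, for ribulose-5-phosphate epimerase, did not pass in any of the 9 comparisons.

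Transketolase and transaldolase, which shuffle carbon between sugar phosphates, each have a major and a minor gene. TKL2, the minor transketolase gene, lay between 5.43 and 5.67 at propagation 0 h and between 7.02 and 7.41 at the later propagation times. In fermentation TKL2 was at 7.93, 8.16 and 8.16 at 8 h, at 9.84 and 8.95 at 30 h, and at 8.51, 9.44 and 9.39 at 60 h. It was lowest at propagation 0 h, with no overlap. On propagation 0 h A, B and C its levels of 5.47, 5.43 and 5.67 were not far above the measure of background (5.27, 4.77 and 4.63). The part of background in its changes from there was not tested. TKL2 was 3.59 higher at fermentation 60 h than at propagation 0 h (SE 0.27, adjusted p = 1.89e-07) and 1.72 higher at propagation 30 h (SE 0.27, adjusted p = 2.87e-05). The major gene TKL1 fell by 2.44 from 0 h to 30 h of propagation (SE 0.50, adjusted p = 0.000358). Its change of -0.60 at fermentation 60 h did not pass with all arrays, but passed at -1.36 without propagation 0 h A (adjusted p = 0.00444).

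NQM1, for a minor transaldolase, lay between 9.11 and 9.52 at propagation 0 h and between 7.69 and 9.33 at the later propagation times. On the fermentation arrays NQM1 lay at 10.97, 10.45 and 10.67 at 8 h, at 11.93 and 10.74 at 30 h, and at 12.32, 12.35 and 12.12 at 60 h. Fermentation 60 h lay above all other groups. NQM1 rose by 1.57 between 8 h and 60 h of fermentation (SE 0.30, adjusted p = 0.00217). The major transaldolase gene TAL1 was 1.37 higher at fermentation 8 h than at propagation 0 h (adjusted p = 0.0229), a call lost without propagation 0 h A (0.74, adjusted p = 0.0718), under quantile normalization (1.09) and with fermentation 8 h B and C averaged (adjusted p = 0.0678).

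**Figure D4:**
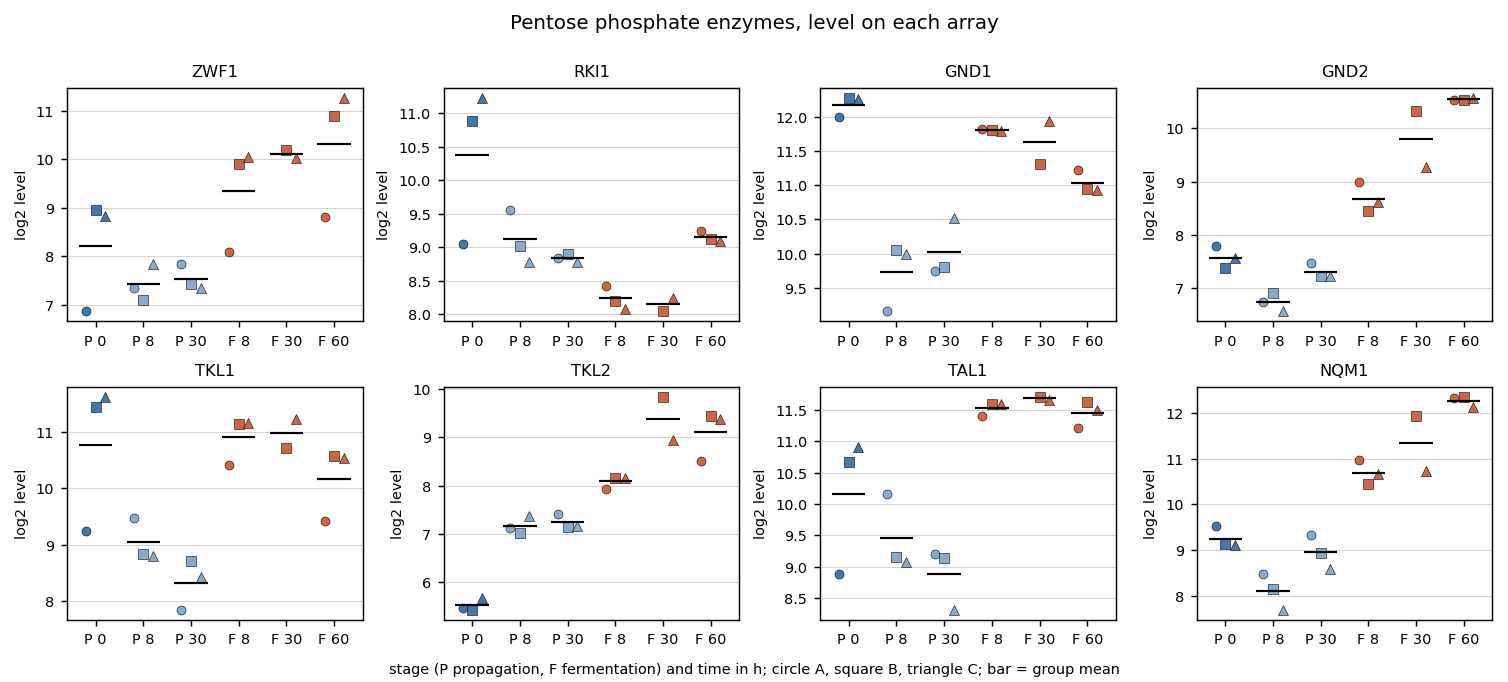
Log2 level (y axis) of 8 genes of the pentose phosphate pathway on each array, by stage and time (x axis), with a bar at the group mean. The minor genes GND2 and NQM1 are highest at 60 h of fermentation (10.53 to 10.57 and 12.12 to 12.35), while GND1 there is at 10.92 to 11.23, below propagation 0 h.

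Within fermentation, 3 of the 31 genes rose from 8 h to 60 h (9.21% of all genes rose) and 4 fell (6.64% of all genes fell). The 3 that rose, GND2, TKL2 and NQM1, are minor genes of the pentose phosphate pathway, and the 4 that fell, HXK2, EMI2, PFK1 and PYK2, are glycolytic. This split between the pathways depended on the fit. After recentring GND1 fell as well (-0.87, adjusted p = 0.0293). Without the 3 arrays of most shortened control RNA, RKI1 (0.97, adjusted p = 0.0111) and ZWF1 (1.10, adjusted p = 0.00736) rose. With array weights the glycolytic gene PFK26 rose (0.70, adjusted p = 0.000103). The median change of the 31 genes was -0.23, beside 0.08 over all genes tested. The rise of TKL2, 1.03 (adjusted p = 0.0164), was lost without fermentation 8 h A or B or 60 h B or C. Without propagation 0 h A, which enters only the shared estimate of spread here, 4 rose and 8 fell (16.1% and 11.1% of all genes). From 8 h to 30 h of fermentation none of the 31 genes passed in limma (0% of all genes passed). At an unadjusted p under 0.05, 3 of the 31 passed, as did 189 of all 5449 genes, and with array weights 6 of the 31 passed. The group at 30 h held 2 arrays, and one of them, C, had a correlation of 0.993 with arrays B and C of fermentation 8 h but of 0.985 with its own partner.

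The list was chosen to set major against minor isoenzymes, so the log2 level of the minor gene was subtracted from that of the major gene on each array. Only changes of this difference between groups are read. Of 13 pairs 12 could be measured, and some share a gene. Across propagation 0 h and the fermentation times (11 arrays), the difference changed between groups for 6 of the 12 pairs by an exact permutation test of the F statistic, which has no direction, adjusted over the 12 pairs. These were GND1/GND2 (adjusted p = 0.000779), HXK2/GLK1 (0.00545), HXK2/HXK1 (0.00623), TKL1/TKL2 (0.00955), ENO2/ENO1 (0.0164) and CDC19/PYK2 (0.0362). With each array left out in turn, the first 4 of these pairs passed in all 11 cases, ENO2/ENO1 in 9, and CDC19/PYK2 in 2. Without propagation 0 h A 9 pairs passed, PFK26/PFK27 (0.0105), TAL1/NQM1 (0.011) and SOL3/SOL4 (0.0408) beside the 6. Without the 3 arrays of most shortened control RNA ENO2/ENO1 did not pass (adjusted p = 0.114). In that setting PFK26/PFK27 (0.019), TAL1/NQM1 (0.019) and GLK1/EMI2 (0.0429) passed. With fermentation 8 h B and C averaged CDC19/PYK2 did not pass (adjusted p = 0.0692).

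For the pairs, the SE here and below comes from the spread of the arrays within the groups compared and not from the limma fit. For GND1/GND2 the difference dropped by 1.48 from propagation 0 h to fermentation 8 h (SE 0.26) and by 2.64 from there to 60 h (SE 0.19), and the minor gene gained at each time. For HXK2/HXK1 it dropped by 2.50 between 8 h and 60 h of fermentation (SE 0.32), with no overlap. For TKL1/TKL2 it dropped by 1.76 over the same times (SE 0.18), and for TAL1/NQM1 by 1.65 (SE 0.25). CDC19/PYK2 went the other way, and the difference grew by 0.81 in favour of the major gene (SE 0.21). ENO2/ENO1 dropped by 0.90 (SE 0.18), and since these genes are near copies, reading of one by the probe set of the other was not tested.

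Among the fermentation arrays alone (8 arrays, 560 assignments) 7 of the 12 pairs passed the exact permutation test, the 6 above and TAL1/NQM1 (adjusted p = 0.0429). With 1 array left out none passed there, the adjusted p being 0.0571 or more, and fewer assignments of arrays to groups then exist. The pairs that passed with neither full set of arrays were GLK1/EMI2, PFK26/PFK27 (adjusted p = 0.188 over 11 arrays), TDH3/TDH1 (0.199), GPM1/GPM2 and SOL3/SOL4. With propagation 8 h and 30 h included (17 arrays, 100000 permutations), 9 pairs passed, PFK26/PFK27, TDH3/TDH1 and TAL1/NQM1 beside the 6. With each of the 17 arrays left out in turn, PFK26/PFK27 passed in all 17 cases, TDH3/TDH1 in 14 and TAL1/NQM1 in 6. For PFK26/PFK27 the difference was 4.06 larger in fermentation than in propagation at 30 h (SE 0.63), and for CDC19/PYK2 4.28 larger (SE 0.28).

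**Figure D5:**
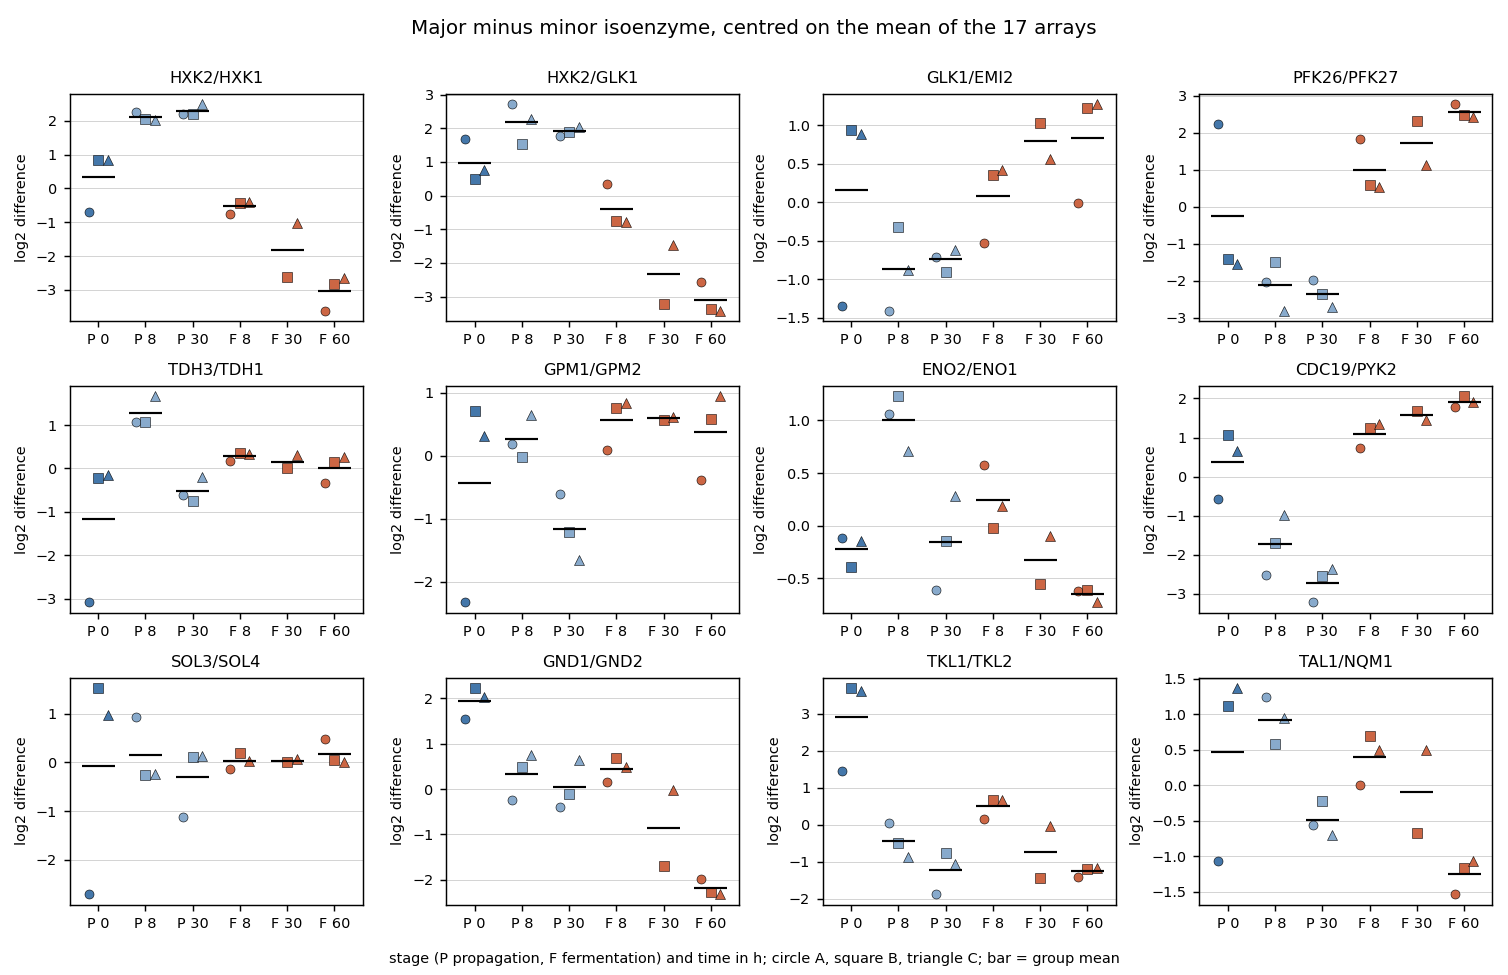
Difference of log2 levels, major minus minor gene, on each array (y axis), centred for each pair on its mean over the 17 arrays, by stage and time (x axis), with a bar at the group mean. From fermentation 8 h to 60 h the difference drops for HXK2/HXK1 (by 2.50), GND1/GND2 (by 2.64), TKL1/TKL2 (by 1.76) and TAL1/NQM1 (by 1.65).

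Early in propagation the pathways were mixed. From 0 h to 8 h, 5 of the 31 genes rose (24.3% of all genes rose) and 11 fell (43.1% of all genes fell), and the median change, -0.46, was near that of all genes, -0.44. From 0 h to 30 h, 2 were higher (28.6% of all genes) and 13 lower (38.7%), with a median of -0.52 beside -0.25. Of the 11 pentose phosphate genes, 7 fell by 8 h and only TKL2 rose. These counts depend on the scaling and on propagation 0 h A. At 8 h they were 7 up and 9 down after recentring and 12 up and 7 down under quantile normalization. Without propagation 0 h A they were 3 up and 18 down (25.0% and 48.1% of all genes). At 30 h they were 4 up and 11 down, 6 up and 10 down, and 3 up and 19 down in the same order. The last of these stands beside 29.4% and 44.0% of all genes.

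At equal times the fermentation arrays lay above those of propagation for most genes. At 8 h, 25 of the 31 genes were higher in fermentation (44.7% of all genes) and 1, PYK2, was lower (24.4% of all genes). At 30 h, 26 were higher (37.5% of all genes) and PFK27 and PYK2 were lower (27.9% of all genes). The median change was 1.92 at 8 h and 2.50 at 30 h, beside 0.49 and 0.24 over all genes. At 8 h the split was 23 to 3 after recentring and 20 to 3 under quantile normalization, with RKI1 and PFK27 lower beside PYK2 in both. At 30 h HXK2 was lower too after recentring (-1.33, adjusted p = 0.0315, limma), under quantile normalization (-2.18, adjusted p = 0.000272) and with array weights (-1.19, adjusted p = 0.00702). RKI1 was lower there under quantile normalization (-0.95, adjusted p = 0.026) and with array weights (-0.71, adjusted p = 0.00584). The changes from 8 h to 30 h were also set against each other in the 2 stages, a test added after the data were seen. None of the 31 genes passed it in limma, 8 had an unadjusted p under 0.05, as did 598 of all 5449 genes, and 0.275% of all genes passed. PGI1 had the difference with the smallest adjusted p, 2.29 more in fermentation (adjusted p = 0.0664).

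Neighbouring enzymes were read from lists of other genes. Of 22 genes at the branches of the pathways, 8 were higher and 3 lower at fermentation 8 h than at propagation 0 h (16.5% and 11.5% of all genes). Without propagation 0 h A 8 were higher and 6 lower (17.8% and 17.2% of all genes). PGM2, for the phosphoglucomutase that links glucose-6-phosphate to glycogen and trehalose synthesis, was 2.65 higher (SE 0.36, adjusted p = 4.56e-05), and PGM1 1.75 higher (adjusted p = 0.000475). Between 8 h and 60 h of fermentation 1 of the 22 rose and 5 fell (9.21% and 6.64% of all genes). The gene that rose was ADH2, for the alcohol dehydrogenase that oxidizes ethanol (1.81, adjusted p = 0.00079), and the fallers included GPP1, a glycerol phosphatase gene (-2.44, adjusted p = 0.0142), and SHB17, which leads carbon from glycolysis to ribose (-1.95, adjusted p = 0.00107). Of 3 genes of the reverse direction, PCK1, for the first committed step of gluconeogenesis, lay between 9.21 and 10.86 at propagation 0 h, between 6.53 and 6.66 at fermentation 8 h and between 7.78 and 8.31 at 60 h. PCK1 was lower by -3.54 at fermentation 8 h than at propagation 0 h (SE 0.31, adjusted p = 1.11e-06), by -4.01 without propagation 0 h A, and rose by 1.46 to 60 h (SE 0.31, adjusted p = 0.00451).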

How the data were processed

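Total RNA of 17 samples was hybridized to Affymetrix yeast arrays. The deposited values are log2 expression summaries by RMA, per the submitters' processing notes; which arrays were normalized together is not given in the sources used here. They were used as deposited, and no intensities or detection calls were analysed, and precision depends on how many arrays a group holds. Of 10928 probe sets, 5498 are listed with an S. cerevisiae gene; for a gene with several (47 genes) the one with the highest mean was kept, which left 5449 genes with no filter.

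One mean per group was fitted with limma 3.58.1 in R 4.3.3, with moderated two-sided tests and Benjamini-Hochberg adjustment over all genes in each of 9 comparisons, as tested on simulated data. Isoenzyme differences were tested by permutation. Propagation 8 h and 30 h were left out of one of these tests because earlier results set them apart. The genes, lists, pairs and tests were chosen with earlier results of these data known. The interaction test and the group from aldolase to pyruvate kinase were added after the data were seen. All 32 genes could be named, and of the other lists up to 4 called genes per comparison, by size of change. Whether replicate letters pair arrays was looked at on residuals: 14 of 40 same-letter pairs correlated over 0.1 (-0.152 to 0.777). Pairs of different letters were not computed, so this cannot decide the pairing. Letters were not taken to pair arrays in the main fits, and the replicate block was an alternative. Alternatives changed the scaling, the filter, the probe sets, the arrays and groups in the fit, array weights, the variance prior and the replicate block, and left out each array.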

Additional observations from a re-analysis of the deposited data

How the results depend on the processing

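The number of the 31 genes that passed in limma kept within 1.5 times of its value under most alternatives. Fitting only the arrays of the 2 groups compared gave 9 genes from propagation 0 h to 8 h (16 with all arrays), 12 from fermentation 8 h to 60 h (7 with all arrays) and 14 between propagation 0 h and fermentation 60 h (26 with all arrays). Array weights gave 23 genes between propagation 0 h and 30 h (15 without weights), 6 between fermentation 8 h and 30 h (0 without) and 19 between fermentation 8 h and 60 h. Leaving out the 3 arrays with the most shortened control RNA gave 8 genes between propagation 8 h and 30 h and 11 between fermentation 8 h and 60 h. With fermentation 8 h B and C averaged, 3 genes passed between propagation 8 h and 30 h. The cause of these shifts was not tested, and some of these fits held fewer arrays. Shares of all genes are given only for the main fit and for the fit without propagation 0 h A. Counts under the other alternatives stand without such a share.

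With each array left out in turn, the count ran from 13 to 21 (propagation 8 h against 0 h), 11 to 22 (30 h against 0 h), 3 to 8 (30 h against 8 h), 0 to 0 (fermentation 30 h against 8 h) and 4 to 12 (60 h against 8 h). Between stages it ran from 18 to 23 (fermentation 8 h against propagation 0 h), 19 to 27 (60 h against 0 h), 25 to 29 (both at 8 h) and 28 to 30 (both at 30 h). The number of isoenzyme pairs that passed ran from 4 to 9 over 11 arrays, 7 to 11 over 17 arrays and 0 to 0 within fermentation, the last 2 ranges having been computed after the data were seen. Where 1 array of fermentation 30 h was left out, the lone array was assumed to vary like the other groups.

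With the replicate letter as a block, 8 genes passed between fermentation 8 h and 60 h, 16 between propagation 0 h and 30 h, 17 between propagation 0 h and 8 h and 6 between propagation 8 h and 30 h, and 7 isoenzyme pairs passed over 11 arrays. In fits of the block ENO2 passed between propagation 8 h and 30 h (-1.64, adjusted p = 0.0355).

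Some directions turned. From 0 h to 8 h of propagation, quantile normalization gave TDH1 0.24 and TPI1 0.68. In the same comparison PFK27 ran from -0.63 to 0.75 with each array left out, and was -0.63 without the 3 arrays of shortened RNA. From 0 h to 30 h of propagation, TDH3 was -1.26 with array weights and -1.18 without those 3 arrays, and ran from -1.18 to 0.78 with each array left out, against 0.11 with all arrays. For the change of the pair difference from propagation 0 h to fermentation 60 h, the range with each array left out was -1.07 to 1.05 for SOL3/SOL4 over 11 arrays, and over 17 arrays -0.09 to 1.09 for GLK1/EMI2 and -0.13 to 1.39 for GPM1/GPM2. In each of these ranges the negative value is that without propagation 0 h A.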

Other observations

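Of 9 transcription regulators of the pathways, 2 were higher and 1 was lower at fermentation 8 h than at propagation 0 h (16.5% and 11.5% of all genes), and 2 rose and 4 fell from 0 h to 8 h of propagation (24.3% and 43.1% of all genes). GCR1, an activator of glycolytic genes in S. cerevisiae, lay between 5.23 and 6.35 at propagation 0 h, between 7.16 and 8.53 at the later propagation times and between 7.04 and 7.36 at fermentation 8 h. It rose by 1.95 from 0 h to 8 h of propagation (adjusted p = 0.000154, limma) and was 1.32 higher at fermentation 8 h (adjusted p = 0.0118). GCR2, for its partner protein, lay between 6.51 and 7.90 at propagation 0 h, between 3.90 and 4.61 at the later propagation times and between 6.98 and 7.29 on all fermentation arrays. GCR2 fell by 3.11 from 0 h to 8 h of propagation (adjusted p = 1.1e-07), and RGT1, for a repressor of hexose transporter genes, fell by 3.72 (adjusted p = 3.18e-06). On the later propagation arrays GCR2 was under the 95th percentile of probe sets for another species (5.02 to 5.63 on those arrays), so its level there is not above this measure of background. RGT1 lay at 5.14, 4.75 and 4.04 on propagation 8 h A, B and C, under that percentile on each (5.45, 5.30 and 5.63). GCR1 was under it on propagation 0 h A (5.23 against 5.27).

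TDH1 also serves as a labelling control with probe sets at both ends of the transcript. The 3-prime control lay between 10.75 and 11.78 in propagation and between 12.79 and 13.18 in fermentation. The 3-prime signal exceeded the 5-prime signal by 5.50 on propagation 0 h A and by 3.47 on C, by 2.22 to 3.54 at propagation 8 h and 2.39 to 3.13 at 30 h, by 3.15 on fermentation 8 h A and by 3.77 on fermentation 60 h A. On the remaining arrays the difference was between -0.08 and 0.86.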
